A study of Aspergillus nidulans with 6 samples.

Results

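The 5 alcohol-utilisation genes described here are ANIA_08977 to ANIA_08981, a run of neighbouring loci that holds the gene of AlcR, annotated as the activator of ethanol catabolism, and that of alcohol dehydrogenase I (ADHI). They were taken by their identifiers and make up 5 of the 1375 genes in the deposited table. The table covers 6 RNA-Seq libraries of Aspergillus nidulans mycelium, 3 of the celAΔ strain and 3 of the control strain SAA.111. In celAΔ the argB marker replaces celA (ANIA_08444), a putative cellulose synthase gene. The GEO labels call that strain both a deletion and a downregulation of celA. SAA.111 carries the markers wA3, pyroA4, riboB2, biA1 and veA1 and lacks argB, which was replaced by trpC. celAΔ was made from it and shares those markers, so the strains differ in argB as well as in celA. The celAΔ cultures descend from a single stable transformant. Both strains were grown in liquid minimal medium with 0.4% glucose and 10 mM ammonium tartrate for 3 days at 37 °C. The samples are labelled as biological replicates, and their p-values measure the spread between these cultures.

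When A. nidulans grows on ethanol, ADHI oxidises it to acetaldehyde and an aldehyde dehydrogenase turns acetaldehyde into acetate. AlcR, a zinc cluster transcription factor, switches on the genes of both enzymes and its own gene once acetaldehyde is present. Glucose represses the system through the repressor CreA. ADHI is known as one of the most strongly regulated enzymes of this fungus, and its promoter is widely used for conditional expression.

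The libraries held 4176645 to 5205011 mapped reads in celAΔ and 3300251 to 3706233 in the control. argB, which marks the strain, had 8150, 15329 and 11624 unique reads in celAΔ, against 4, 4 and 2 in the control. The deleted gene itself kept 33, 38 and 36 reads in celAΔ, against 198, 197 and 111 in the control. Every listed gene had already passed the authors' selection on these same libraries, a difference of more than 1 on the log2 scale and a p-value under 0.05, so the tests below describe the genes and are not independent evidence. Control replicate 3 stood apart from the other control libraries. Of the 10 genes of a conidiation list, 4 were in the table, and their summed level was 1623, 2517 and 3389 RPKM in celAΔ and 41.0, 40.7 and 1247 RPKM in control replicates 1, 2 and 3. Most of the sum in celAΔ was ANIA_05015 alone, with 1128, 1731 and 2529 RPKM, as it was in control replicate 3, with 943 RPKM. The 4 genes are those the study names as raised in celAΔ, so their height there follows from the selection. The SpoC1-C1C-like ANIA_10628 was at 0 reads in control replicate 2 alone. Of the 4 genes, 1 passed the test used below, beside 93.6% of listed genes that passed in either direction.

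All 5 alcohol-utilisation genes were lower in celAΔ than in the control, and for each of them the highest celAΔ library lay below the lowest control library. ADHI, which leads the group in the control, fell most among those with reads in both strains, by about the same factor as the neighbouring membrane protein gene ANIA_08981, while ANIA_08980 had no read in celAΔ. AlcR was lower by a much smaller factor, and ANIA_08977 (AkeP) by the smallest. In bulk RNA, fewer expressing cells and less RNA per cell cannot be told apart. In edgeR's quasi-likelihood test with Benjamini-Hochberg adjustment over all listed genes, 5 of 5 passed as lower (adjusted p under 0.05 and absolute log2 FC over 1), where 52.5% of listed genes did so. Of the 733 listed genes lower in celAΔ, 722 passed, so passing does not set the 5 apart. All 1375 listed genes had groups without overlap, so the lack of overlap does not set the 5 apart either. celAΔ was the lower group for 5 of 5, against 53.3% of listed genes. The median log2 FC of the 5 genes was -7.53, or -4.72 with ANIA_08980 at its bound. That of all listed genes was -1.04. As the selection left 733 genes lower and 642 higher, this value lies at the edge of the lower genes. It is not the change of a typical listed gene. When all loci of the assembly were counted in the adjustment, 4 of 5 passed, against 25.6% of listed genes, and ANIA_08977 did not.

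**Figure D1:**
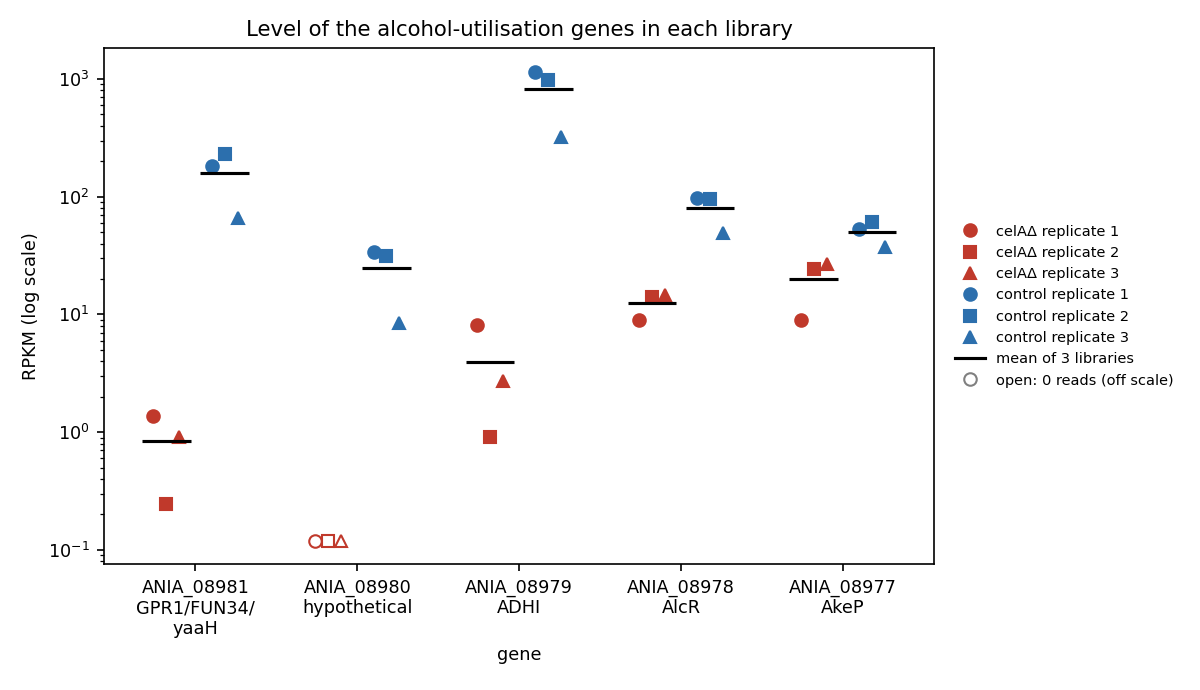
RPKM (log scale) of each of the 5 genes in the 3 celAΔ libraries (red, left) and the 3 control libraries (blue, right), in the order of the loci in the assembly, with a bar at the mean of each strain. ADHI lies between 0.912 and 8.19 RPKM in celAΔ and between 321 and 1158 RPKM in the control, the open symbols stand for 0 reads, and control replicate 3 is the lowest control point of every gene.

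AlcR is encoded by ANIA_08978, the regulatory gene of the group. It had 103, 180 and 151 unique reads in celAΔ replicates 1, 2 and 3, against 889, 772 and 440 in the control. Per length and mapped reads this was 9.00, 14.0 and 14.7 RPKM in celAΔ, against 97.3, 94.9 and 49.5 RPKM in the control. Within celAΔ, replicate 1 was lower than replicates 2 and 3 beyond counting error, and control replicate 3 lay between the other control libraries and celAΔ. The means were 12.6 ± 3.10 RPKM in celAΔ and 80.5 ± 26.9 RPKM in the control (SD, n = 3 each). The AlcR level was thus 6.41-fold lower in celAΔ by the ratio of means. On the log2 scale the difference was -2.68 with a standard error of 0.40 (edgeR, adjusted p = 0.00213), and AlcR passed in 14 of 14 alternative settings. The transcript was still detected in each celAΔ library, the lowest count of 103 reads having a 95% counting interval of 84.1 to 124.9 reads (exact Poisson).

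ANIA_08979 encodes ADHI, the enzyme that oxidises ethanol. The celAΔ libraries had 40, 5 and 12 unique reads of it, against 4518, 3413 and 1218 in the control. These counts correspond to 8.19, 0.912 and 2.73 RPKM in celAΔ and to 1158, 982 and 321 RPKM in the control. Every control library exceeded every celAΔ library by a wide margin, although both strains varied. Within celAΔ, replicate 1 had more than replicate 2 beyond counting error, since its 40 reads have an exact Poisson interval of 28.6 to 54.5 reads and the 5 reads of replicate 2 one of 1.62 to 11.7 reads. The mean was 3.94 ± 3.79 RPKM in celAΔ and 820 ± 441 RPKM in the control (SD, n = 3 each), a 208-fold lower level in celAΔ. Its fitted log2 FC was -7.69 ± 1.03 (SE), with an adjusted p of 0.00156 from edgeR. celAΔ replicate 1 carried most of the celAΔ mean, and without it the log2 FC was -8.81. Among listed genes with reads in both strains and a lower level in celAΔ, 692 in number, ADHI had the 6th lowest ratio of means. By its mean it ranked 31 of the 1375 listed genes in the control and 1044 in celAΔ.

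ANIA_08981 is annotated as a plasma membrane protein of the GPR1/FUN34/yaaH family. In Saccharomyces cerevisiae, members of this family are known for a part in the transport of acetate and ammonium. The gene had 5, 1 and 3 unique reads in celAΔ, against 533, 599 and 186 in the control. The celAΔ libraries were all close to the detection limit, which 3 reads set at 0.731 to 0.910 RPKM for this gene. Its mean was 0.840 ± 0.565 RPKM in celAΔ and 159 ± 84.7 RPKM in the control (SD, n = 3 each). The fitted log2 FC of -7.53 ± 0.77 (SE) had an adjusted p of 0.00120 in the edgeR test. Over the summed libraries, the 9 reads of celAΔ and the 1318 of the control gave a rate 193-fold lower in celAΔ, with a counting interval of 102 to 424 (exact binomial, 95%). Such intervals cover counting error only. ANIA_08981 came directly after ADHI in the order of ratios, at rank 7.

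ANIA_08980, a conserved hypothetical protein, lies between ADHI and ANIA_08981. It had 0 unique reads in all 3 celAΔ libraries, against 87, 72 and 21 in the control. In the control this was 34.0, 31.6 and 8.44 RPKM. At this depth 0 reads allow up to 0.835 to 1.04 RPKM in celAΔ (3 reads per library), so its level was at least 26.3-fold lower in celAΔ. The fitted difference of a gene at 0 depends on the prior count and is not given as a size. The gene passed the test (edgeR, Benjamini-Hochberg adjusted p = 0.00281). Among the 41 genes listed at 0 in all celAΔ libraries, ANIA_08980 had the third highest control mean.

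ANIA_08977, annotated as hypothetical protein AkeP, follows AlcR on the other side of the run. It had 44, 135 and 119 unique reads in celAΔ, against 209, 213 and 143 in the control. In RPKM, these were 8.93, 24.4 and 26.8 in celAΔ and 53.1, 60.8 and 37.3 in the control. The gap between the strains was small here, from 26.8 RPKM in celAΔ replicate 3 to 37.3 RPKM in control replicate 3, and celAΔ replicate 1 lay well below the other celAΔ libraries. The means were 20.1 ± 9.71 RPKM in celAΔ and 50.4 ± 12.0 RPKM in the control (SD, n = 3 each). The edgeR test gave a log2 FC of -1.33 ± 0.45 (SE) and an adjusted p of 0.0248. This call is the least secure of the 5, as the gene passed in 8 of 14 alternative settings. It did not pass without celAΔ replicate 1, celAΔ replicate 2 or control replicate 2, with log2 FC of -0.98, -1.50 and -1.17, and adjusted p-values ranged from 0.00611 to 0.213 over the settings (edgeR, limma and DESeq2). When the libraries were scaled to the listed genes, its log2 FC was -0.62.

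The order of the levels within a library differed between the strains. In all 3 control libraries it was ADHI, ANIA_08981, AlcR, ANIA_08977 and ANIA_08980, from high to low. In celAΔ replicates 2 and 3 ANIA_08977 came first and AlcR second, followed by ADHI, ANIA_08981 and ANIA_08980. celAΔ replicate 1 had AlcR and ANIA_08977 at nearly equal levels, 9.00 and 8.93 RPKM, with ADHI just below them. By the means, neighbours in the control order did not all differ beyond their spread. ANIA_08981 and AlcR, at 159 ± 84.7 and 80.5 ± 26.9 RPKM, overlapped between libraries, as did AlcR and ANIA_08977, although the order held inside each library. In celAΔ the ranges of ANIA_08977, with 8.93 to 26.8 RPKM, and AlcR, with 9.00 to 14.7 RPKM, overlapped, while that of ADHI lay below both.

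Put as a ratio of RPKM, ADHI stood at 0.909, 0.0651 and 0.186 times AlcR in celAΔ, against 11.9, 10.4 and 6.48 times in the control. On the log2 scale the ratio averaged -2.17 ± 1.92 in celAΔ and 3.21 ± 0.46 in the control (SD, n = 3 each), a difference of -5.38. The ratio of ANIA_08981 to AlcR differed by -5.05, and that of ANIA_08977 to AlcR by 1.19, all without overlap of the strains. The ratio of ANIA_08981 to ADHI overlapped between the strains, with 0.167, 0.267 and 0.334 in celAΔ against 0.157, 0.234 and 0.204 in the control. Its difference on the log2 scale was 0.33 (two-sided exact permutation test, p = 0.4). The other 3 ratios reached p = 0.1, the smallest value the exact permutation test allows with 3 libraries per strain, and 0.133 after Benjamini-Hochberg adjustment over the 4 ratios. No outcome of this test could pass 0.05, and the celAΔ ratios with ANIA_08981 rest on 5, 1 and 3 reads, so whether its proportion to ADHI differed was not detectable at this depth.

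Taken as a group, the 5 genes held 192, 321 and 285 unique reads in celAΔ and 6236, 5069 and 2008 in the control. This is 0.00414 to 0.00682% of mapped reads in celAΔ and 0.0557 to 0.168% in the control. Most control reads belonged to ADHI, and most celAΔ reads to AlcR and ANIA_08977. All reads of the 5 genes were unique, so none of these values is affected by reads with several hits.

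Control replicate 3 gave the lowest control value for 5 of 5 genes, as it did for 75.2% of the 733 listed genes that were lower in celAΔ. Its level relative to the mean of control replicates 1 and 2 was 0.257 for ANIA_08980, 0.300 for ADHI, 0.317 for ANIA_08981, 0.515 for AlcR and 0.656 for ANIA_08977. The median of the lower genes was 0.653. ANIA_08980, ADHI and ANIA_08981 were therefore among the lower genes with the smallest ratio, at percentiles 0.955, 2.86 and 3.41. AlcR was at percentile 26.1 and ANIA_08977 at 50.5. Among the 5, the genes with the largest strain difference were also those lowest in control replicate 3 relative to the other control libraries, yet ADHI in that library was still 81.3 times its celAΔ mean and ANIA_08981 77.8 times. Without control replicate 3 the log2 FC of ADHI was -8.09, that of ANIA_08981 -7.91, that of AlcR -2.93 and that of ANIA_08977 -1.50, all past the threshold. The conidiation genes that were high in this control library were also high in celAΔ, and their part in the result was not tested.

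**Figure D2:**
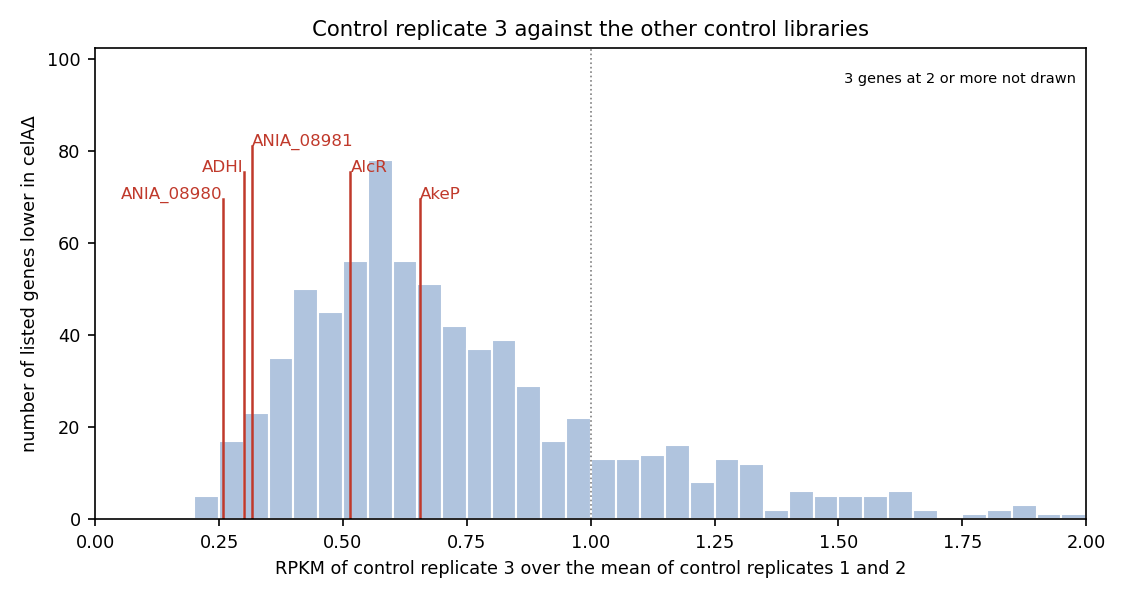
Histogram of the RPKM of control replicate 3 over the mean of control replicates 1 and 2 for the listed genes lower in celAΔ, with red lines at the 5 alcohol-utilisation genes and a dotted line at 1. ANIA_08980, ADHI and ANIA_08981 stand at the left end, between 0.257 and 0.317, AlcR at 0.515, near the lower quartile of 0.509, and AkeP at 0.656, beside the median of 0.653.

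Of 12 genes of ethanol and acetate metabolism that were looked for, 5 were in the table, and the other 7, among them creA and facB, were not analysed here. They include pyruvate decarboxylases, which make acetaldehyde, the aldehyde dehydrogenase step that follows ADHI, and enzymes of acetate use and gluconeogenesis. With the threshold used above, 2 rose and 2 fell in celAΔ and 1 did not pass, beside 93.6% of listed genes that passed in either direction. The median log2 FC of the 5 was 1.08.

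ANIA_00554, an aldehyde dehydrogenase and the most abundant of them in the control, had 436 ± 20.4 RPKM in celAΔ and 1557 ± 666 RPKM in the control (SD, n = 3 each). With a log2 FC of -1.84 ± 0.45 (SE) it passed the edgeR test at an adjusted p of 0.00878. In control replicate 3 it had 790 RPKM, against 1894 and 1987 RPKM in the other control libraries, so it shared the direction of ADHI with a far smaller difference and stayed at a high level in celAΔ.

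The pyruvate decarboxylases moved in opposite directions. ANIA_04888 rose to 271 ± 15.8 RPKM in celAΔ, against 50.8 ± 41.4 RPKM in the control (log2 FC 2.41 ± 0.59 SE, adjusted p = 0.00850 in edgeR), with a log2 FC of 3.33 without control replicate 3. ANIA_08396, a putative pyruvate decarboxylase, fell to 48.2 ± 8.84 RPKM in celAΔ, against 190 ± 80.3 RPKM in the control (log2 FC -1.98 ± 0.44 SE, adjusted p = 0.00629 in edgeR). Isocitrate lyase (ANIA_05634), the entry enzyme of the glyoxylate cycle by which acetate carbon is kept, had 255 ± 91.2 RPKM in celAΔ and 53.6 ± 62.3 RPKM in the control. Its log2 FC was 2.25 (edgeR, Benjamini-Hochberg adjusted p = 0.0340), and it failed the threshold without any 1 of the libraries except control replicate 3, which alone among the controls was high, with 126 RPKM, and without which the log2 FC was 3.86. Phosphoenolpyruvate carboxykinase (ANIA_01918), which opens gluconeogenesis, had 708 ± 91.9 RPKM in celAΔ and 334 ± 191 RPKM in the control and did not pass (log2 FC 1.08; edgeR, Benjamini-Hochberg adjusted p = 0.0532). It did pass in 6 of 14 alternative settings, with both limma fits, DESeq2, scaling to the listed genes and the replicate block among them, and without control replicate 3 its log2 FC was 1.66. When all loci of the assembly were counted, only ANIA_08396 of these 5 genes passed (edgeR, Benjamini-Hochberg adjusted p = 0.0481), beside 524 of the 1375 listed genes.

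**Figure D3:**
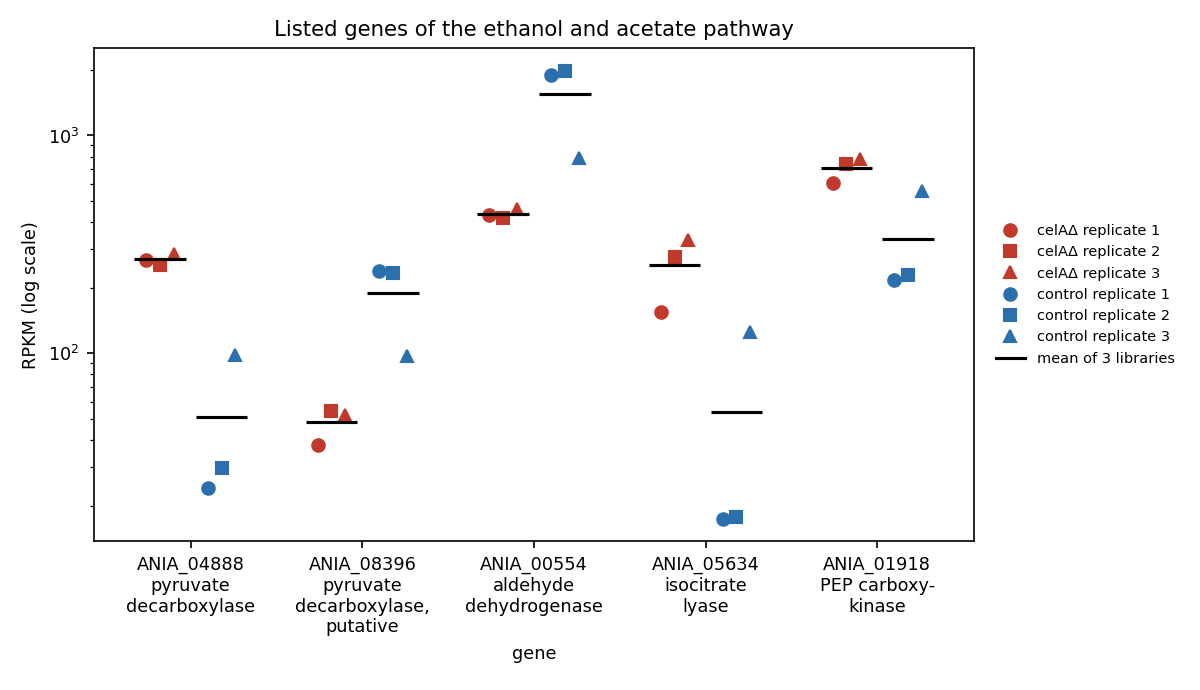
RPKM (log scale) of the 5 listed genes of ethanol and acetate metabolism in the 3 celAΔ libraries (red, left) and the 3 control libraries (blue, right), with a bar at the mean of each strain. The aldehyde dehydrogenase ANIA_00554 and the decarboxylase ANIA_08396 lie lower in celAΔ, ANIA_04888, isocitrate lyase and phosphoenolpyruvate carboxykinase lie higher, and control replicate 3 is the control point nearest to celAΔ for each gene.

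ADHI was also set beside the 11 other listed genes whose annotation holds the words alcohol dehydrogenase or aldehyde dehydrogenase. The semialdehyde dehydrogenases ANIA_03591 and ANIA_10011 and the formaldehyde dehydrogenase ANIA_07632 were thereby among these 11. Of these, 9 fell and 2 rose in celAΔ, all past the threshold (edgeR, highest Benjamini-Hochberg adjusted p = 0.0146). This share is close to the 93.6% of all listed genes that passed in either direction, and 52.5% of listed genes passed as lower. The median log2 FC of the 11 was -1.56 and the lowest was -2.90. That lowest value belonged to ANIA_03205, a putative aldehyde dehydrogenase with only 2, 4 and 2 reads in celAΔ, against 18, 19 and 10 in the control. Genes that rose were the putative zinc-binding alcohol dehydrogenase ANIA_03030, with a log2 FC of 1.40, and the putative aryl-alcohol dehydrogenase ANIA_08329, with 2.14 and at most 4 reads in any control library, or 3.04 without control replicate 1. ADHI, at -7.69, was thus further from 0 than any of the other 11 listed dehydrogenases. With the libraries scaled to the listed genes, 7 of the 12 dehydrogenases passed, ADHI among them, beside 937 of the 1375 listed genes.

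**Figure D4:**
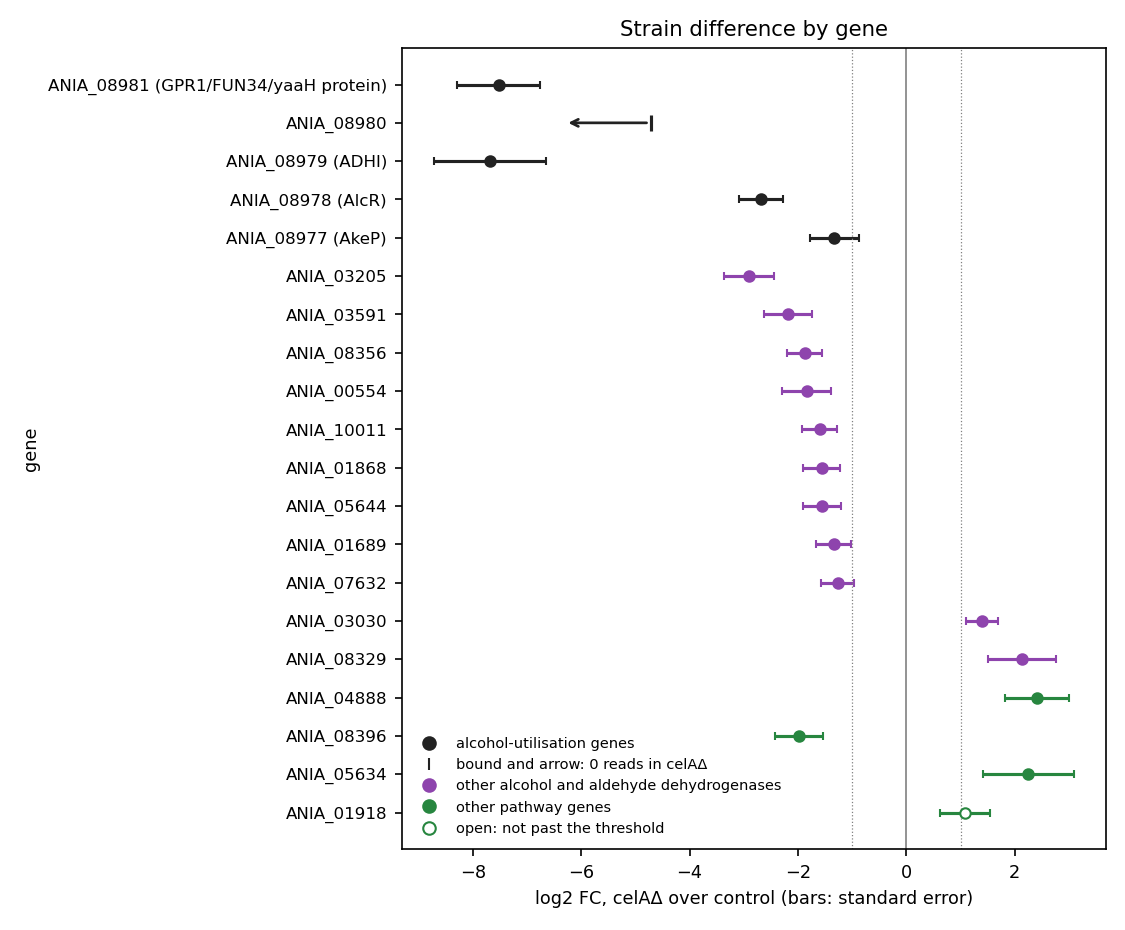
log2 FC of celAΔ over the control with its standard error for the alcohol-utilisation genes (black), the other listed alcohol and aldehyde dehydrogenases (purple, ANIA_00554 among them) and the other pathway genes (green), with dotted lines at -1 and 1. ADHI and ANIA_08981 lie near -7.69 and -7.53, the bound of ANIA_08980 lies at -4.72 with an arrow to lower values, and the other dehydrogenases lie between -2.90 and 2.14.

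In the order of the assembly the 5 loci follow each other without a gap, from ANIA_08981 to ANIA_08977. Among the 10 loci on each side, 3 were in the table and 17 were not analysed here. The locus directly beside the run is unlisted on each side. The 3 listed neighbours were all lower in celAΔ and past the threshold, beside 52.5% of listed genes and 722 of the 733 lower ones. When all loci were counted in the adjustment, 2 of the 3 neighbours passed. ANIA_08986, a conserved hypothetical protein 5 loci from ANIA_08981, had 0 reads in all celAΔ libraries and 8, 8 and 3 in the control. ANIA_08969, another conserved hypothetical protein, had 2, 2 and 0 reads in celAΔ, against 22, 14 and 22 in the control. ANIA_08968, of the isoflavone reductase family, had 12.1 ± 1.26 RPKM in celAΔ and 27.9 ± 7.54 RPKM in the control (SD, n = 3 each), a log2 FC of -1.20. It passed in 10 of 14 alternative settings and lost the threshold without control replicate 1, with a log2 FC of -0.96.

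Likeness of profile to ADHI over the 6 libraries was measured as the root mean square difference of log2(RPKM + 0.1) after each gene's mean was removed. On this scale the nearest listed gene was its neighbour ANIA_08981, with 0.445. It was followed by ANIA_06471 with 0.467, ANIA_06473 with 0.609, ANIA_07232 with 0.747 and the putative O-methyltransferase ANIA_03236 with 0.844. ANIA_06471, a hypothetical protein, had 1, 0 and 0 reads in celAΔ, against 155, 151 and 53 in the control. ANIA_06473, a conserved hypothetical protein, had 2, 0 and 0 reads in celAΔ, against 238, 232 and 137 in the control. ANIA_08980 ranked 6 by this measure, AlcR 188 and ANIA_08977 587. The distance includes the size of the strain difference, with a log2 FC of -7.69 for ADHI, -2.68 for AlcR and -1.33 for ANIA_08977. These ranks are therefore not separate from the fold changes. With log2(RPKM + 1), 2 of the 5 nearest genes, ANIA_08981 and ANIA_06471, were again among the nearest 5, ANIA_06438 came first with 0.716 and ANIA_08981 second with 0.725, so the list and its order depend on the offset given to genes near 0.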

How the data were processed

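RNA-Seq libraries of 3 celAΔ and 3 control cultures were used. The authors trimmed the reads, mapped them to the FGSC A4 transcriptome in CLC Genomics Workbench and deposited, per gene and library, counts of unique gene reads and RPKM values. The table also holds the authors' mean RPKM, an unadjusted p-value of their own test and gene size; the p-values were not used. The labels give 3 days of growth, and the results text of the study names a later time-point.

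Recomputed from RPKM, all 1375 listed genes meet the selection the methods state, so the table holds no unselected background. Mapped totals were derived from reads, size and RPKM, and with them the RPKM of at least 98.7% of genes per library gave back the deposited count to within 1 read. A supplementary sheet of the study gives the mapped totals of control replicate 2 and celAΔ replicate 2 in each other's place. The totals derived from the table were used, and argB reads follow the table's labels in all 6 libraries. Counts were tested with edgeR 4.0.16 in R 4.3.3 (quasi-likelihood, mapped totals as library sizes, prior count 0.125, two-sided), without a filter, and adjusted over listed genes. The standard error (SE) is the fitted log2 FC divided by the root of the F statistic, without sign. The study's layout of 2 groups was kept. Genes at 0 are bounded with 3 reads per library. Alternatives were limma 3.58.1, DESeq2 1.42.0, other scalings, a filter, a replicate block, adjustment over all 10516 assembly loci (ASM1142v1, used for order and symbols; 1372 identifiers matched) and leaving out each library. Scripts were tested on simulated data. Plots used matplotlib 3.10.9.

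Named genes are the 5 members, argB and celA, the pathway, dehydrogenase, conidiation and neighbour lists, and the 5 profiles nearest to ADHI. Members and lists were chosen with earlier results of these data known. Sequences were not used here.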

Additional observations from a re-analysis of the deposited data

How the results depend on the processing

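AlcR, ADHI, ANIA_08980 and ANIA_08981 passed the threshold in each of the 14 alternative settings, and no direction of the 5 genes, the pathway genes or the dehydrogenases turned in any of them. Only ANIA_08977 lost its call: its log2 FC was -0.62 with DESeq2 (adjusted p = 0.164) and -0.62 with scaling to the median ratio of the listed genes, it kept -1.33 but not the threshold with adjustment over all loci (edgeR, adjusted p = 0.189), and with 1 library left out it ranged from -1.59 to -0.98. Adjusted over all loci, 524 listed genes passed in place of 1287, 1 of 5 pathway genes in place of 4 and 7 of 12 dehydrogenases in place of 12. The dehydrogenases also numbered 7 with DESeq2 and 7 with the median scaling. That scaling assumes no net change among the listed genes, which were selected for a change. By RPKM, 733 of the 1375 were lower in celAΔ. Yet unique reads of the listed genes made up 19.7 to 21.9% of mapped reads in celAΔ and 14.9 to 15.1% in the control. The median scaling moved the median log2 FC of all listed genes by 0.67, so that 36.4% of calls were lower in celAΔ in place of 56.1%. ADHI was then at -6.97, ANIA_08981 at -6.81 and AlcR at -1.96. Same-numbered celAΔ and control libraries are paired by no label, and their deviations correlated by 0.167, -0.168 and 0.135. With the replicate block 1258 genes passed, the 5 alcohol-utilisation genes among them, and all 5 pathway genes did, phosphoenolpyruvate carboxykinase included (edgeR, adjusted p = 0.0495). Depth limits ANIA_08980 and ANIA_08981 most, with 0 and 9 reads in all celAΔ libraries together.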
